A study of Arabidopsis thaliana with 8 samples.

Results

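Xylem vessel maturation and death genes were followed as 9 loci, XCP1, XCP2, BFN1, RNS3, MC9, TED6, ACL5, COBL4 and CTL2, taken by locus from the probe annotation of the array. Of 25665 loci on the array these are 9, each read by 1 probe, and all 9 were well above background on all 8 arrays and so were among the 20336 loci tested. Total RNA of whole 2-week-old Columbia-0 seedlings was compared between wild type (n = 4) and plants carrying 35S:MYB87-SRDX (n = 4), on single-colour (Cy3) Agilent arrays. MYB87 is an R2R3 MYB transcription factor, SRDX is a short repression motif that turns a fused activator into a dominant repressor, and the 35S promoter drives the fusion in most cells of the plant. Per the labels, both groups were T2 seedlings, with 5 seedlings in each sample, grown on MS agar with 1% sucrose at 23 °C under 16 h light and 8 h dark. The transgenic seedlings were on hygromycin and the wild-type seedlings were not, and each group lay on its own slide, so genotype, hygromycin and slide cannot be told apart. The labels do not say how many transgenic lines were sampled or whether replicates came from separate plates, and the p-values here cover the spread among the samples as deposited, some of which may be technical.

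Vessel elements are the water-conducting cells of the xylem. They lay down a patterned secondary wall of cellulose, xylan and lignin, then kill and digest themselves so that only the hollow wall remains. NAC factors of the VND family switch this programme on. The polyamine thermospermine, made by ACL5, restrains it and delays death until the wall is built, and after rupture of the vacuole papain-like proteases, a metacaspase and nucleases clear the cell contents. In a seedling such cells lie in root, hypocotyl and leaf veins.

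MYB87 itself (AT4G37780) checked the labels. On a log2 scale, with the array's own 75th percentile set to 0, its signal was -5.48, -7.20, -7.44 and -7.08 in wild type and 5.75, 5.52, 5.58 and 2.54 in MYB87-SRDX. All 4 transgenic arrays lay far above wild type, and MYB87-SRDX replicate 4 carried less than the others. Neither fibre switch, NST1 or SND1, rose well above background on any of the 8 arrays, whereas 12 of 13 vessel regulators were detected and tested. The 75th percentile of the processed signal was between 1539 and 2053 over the 8 arrays, and the number of arrays limits the precision.

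All 9 vessel genes were lower on average in MYB87-SRDX, and 6 of them, XCP1, XCP2, MC9, ACL5, COBL4 and CTL2, passed the limma test at an adjusted p below 0.05. None was higher. At least 2-fold lower and past the threshold were XCP1 and CTL2, a class that held 2.43% of all loci. Over all loci tested, 12.5% were lower and 15.1% higher by the same rule. The median log2 difference of the 9 genes was -0.82, against 0.01 over all loci tested. For 6 of the 9, namely XCP1, XCP2, TED6, ACL5, COBL4 and CTL2, every MYB87-SRDX array lay below every wild-type array, which held for 13.1% of all loci. The call of MC9 was lost in 13 of 21 alternative settings, while those of XCP1, XCP2, ACL5, COBL4 and CTL2 held in all 21. Because whole seedlings were sampled, fewer vessel cells and less RNA per vessel cell cannot be told apart.

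**Figure D1:**
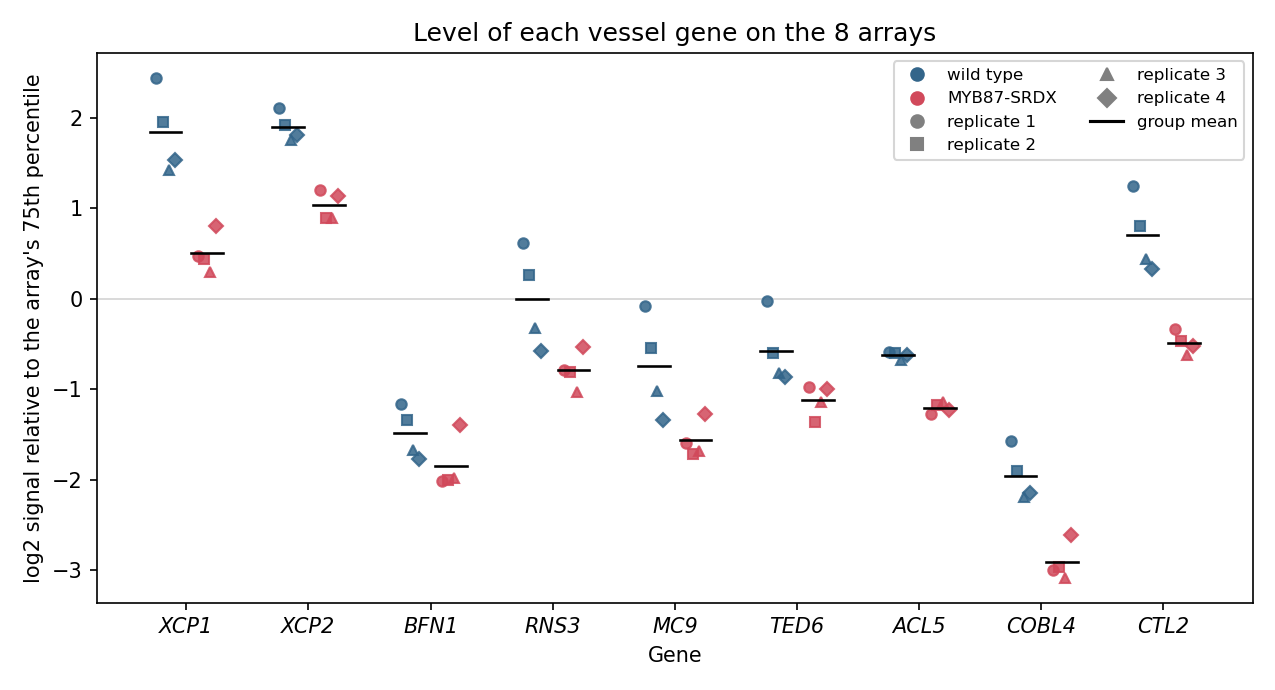
Log2 signal with the array's 75th percentile at 0 (y axis) for each of the 9 vessel genes (x axis), with wild type in blue, MYB87-SRDX in red, 1 symbol per replicate and a black bar at each group mean. The groups do not overlap for XCP1, XCP2, TED6, ACL5, COBL4 and CTL2, and do overlap for BFN1, RNS3 and MC9. Heights of different genes come from different probes and are not comparable.

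ACL5 (AT5G19530), the thermospermine synthase, whose loss in Arabidopsis gives dwarf plants with vessels that die early, had the narrowest spread within the groups. Its log2 signal was -0.59, -0.60, -0.67 and -0.63 in wild type replicates 1 to 4 and -1.27, -1.17, -1.14 and -1.23 in MYB87-SRDX replicates 1 to 4. The arrays of each group lay within 0.13 of each other and the groups were well apart. The fall of 0.58 ± 0.06 on the log2 scale (SE, n = 4 per group), or 1.50-fold, had an adjusted p of 0.00125 by limma, and 9.20% of all loci fell further. Its size depended on the processing, with a log2 difference of -0.49 under median scaling and -0.40 with the normexp background setting.

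TED6 (AT1G43790), a small membrane protein that binds the secondary wall cellulose synthase complex in differentiating vessels, did not pass. Its log2 signal was -0.03, -0.60, -0.82 and -0.86 in wild type and -0.97, -1.36, -1.14 and -1.00 in MYB87-SRDX. The groups did not overlap, but wild type replicate 1 stood well above the other wild-type arrays. TED6 differed by -0.54 ± 0.19 on the log2 scale (SE), with a 95% interval from -0.98 to -0.10. The limma adjusted p was 0.0672, and the difference was -0.36 without wild type replicate 1 (adjusted p 0.0581, and from 0.0154 to 0.150 over the alternatives).

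COBL4 (AT5G15630, also named IRX6), a GPI-anchored protein needed for cellulose deposition in secondary walls, fell by 0.96 ± 0.16 on the log2 scale (SE), 1.94-fold. Its log2 signal was -1.58, -1.90, -2.19 and -2.14 in wild type and -3.00, -2.96, -3.08 and -2.61 in MYB87-SRDX. The lowest wild-type array was 0.42 above the highest MYB87-SRDX array, and the adjusted p by limma was 0.00567. CTL2 (AT3G16920), a chitinase-like protein tied to cellulose of secondary walls, had log2 signals of 1.24, 0.81, 0.44 and 0.33 in wild type and -0.34, -0.47, -0.62 and -0.52 in MYB87-SRDX. The transgenic arrays clustered closely, the wild-type arrays were spread over 0.92, and a gap of 0.67 separated the groups. CTL2 fell by 1.19 ± 0.19 (SE), 2.28-fold, with an adjusted p of 0.00519, and 2.11% of all loci fell further.

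XCP1 (AT4G35350) and XCP2 (AT1G20850) are the papain-like cysteine proteases of the vessel vacuole, which digest the cell contents during and after death. The log2 signal of XCP1 was 2.44, 1.96, 1.42 and 1.53 in wild type and 0.47, 0.44, 0.30 and 0.80 in MYB87-SRDX. XCP1 fell by 1.33 ± 0.23 (SE), 2.52-fold, with an adjusted p of 0.00598, the largest fall among the 9 genes, exceeded by 1.61% of all loci. The wild-type arrays differed among themselves by 1.02, yet all lay at least 0.62 above the transgenic ones. XCP2 varied less, at 2.11, 1.91, 1.76 and 1.81 in wild type and 1.20, 0.89, 0.90 and 1.13 in MYB87-SRDX. It fell by 0.86 ± 0.11 (SE), 1.82-fold, with an adjusted p of 0.00231. Both proteases thus separated the groups completely, and the log2 ratio of XCP1 to XCP2 within an array was -0.06 ± 0.31 (SD, n = 4) in wild type and -0.53 ± 0.17 (SD, n = 4) in MYB87-SRDX. This difference of -0.47 had an exact two-sided permutation p of 0.0571, and 0.0914 when adjusted over the 8 pairs of relatives compared.

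MC9 (AT5G04200), the metacaspase that acts in the clearing of vessel cell contents, had log2 signals of -0.08, -0.55, -1.02 and -1.34 in wild type and -1.59, -1.71, -1.69 and -1.27 in MYB87-SRDX. The groups overlapped, because MYB87-SRDX replicate 4 lay just above wild type replicate 4. MC9 fell by 0.82 ± 0.26 (SE), and limma gave an adjusted p of 0.0479. Over the alternatives its adjusted p ran from 0.0201 to 0.122, and leaving out any array but wild type replicate 4 ended the call, with adjusted p values of 0.0573, 0.122 and 0.0625 without wild type replicates 1, 2 and 3, and of 0.106, 0.106, 0.0965 and 0.0592 without MYB87-SRDX replicates 1 to 4. Quantile scaling, normexp, the authors' values, a replicate block, no filter on dim probes and leaving out wild type 1 with MYB87-SRDX 4 also ended it.

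Neither nuclease passed the test. RNS3 (AT1G26820), an S-like ribonuclease, had log2 signals of 0.62, 0.27, -0.33 and -0.58 in wild type and -0.78, -0.81, -1.03 and -0.53 in MYB87-SRDX. Wild type replicates 1 and 2 stood above the rest, while wild type replicate 4 lay just below the highest transgenic array. Its log2 difference of -0.78 ± 0.26 (SE) had a 95% interval from -1.37 to -0.19 and an adjusted p of 0.0541, and from 0.0173 to 0.137 over the alternatives, 6 of which brought it past the threshold. It did so without wild type replicate 4, with a log2 difference of -0.98 and an adjusted p of 0.0236. BFN1 (AT1G11190), a nuclease of dying vessels and also of ageing leaves, had log2 signals of -1.16, -1.34, -1.67 and -1.77 in wild type and -2.01, -2.00, -1.98 and -1.39 in MYB87-SRDX. Here 3 transgenic arrays lay below all wild-type arrays and MYB87-SRDX replicate 4 lay among them. BFN1 differed by -0.36 ± 0.19 on the log2 scale (SE), with a 95% interval from -0.79 to 0.07 and an adjusted p of 0.182, and it was -0.51 without MYB87-SRDX replicate 4 (adjusted p 0.0570; from 0.0570 to 0.343 over the alternatives).

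Relatives of these genes, among them some of other tissues or the primary wall, were compared within each array. The 8 pairs also held XCP1 with XCP2, both vessel genes, and TED6 with its partner TED7. COB (AT5G60920), the COBRA protein of expanding primary walls, had a log2 difference of -0.03 ± 0.08 (SE), which turned to 0.06 under median scaling and 0.11 with normexp. CTL1 (AT1G05850), the chitinase-like protein of primary walls, had one of -0.17 ± 0.07, with an adjusted p of 0.113, and of -0.33 with quantile scaling (adjusted p 0.0185, and from 0.0185 to 0.671 over the alternatives), -0.08 under median scaling and -0.11 with normexp. The log2 ratio of COBL4 to COB was -3.86 ± 0.22 (SD, n = 4) in wild type and -4.78 ± 0.28 (SD, n = 4) in MYB87-SRDX. That of CTL2 to CTL1 was -4.10 ± 0.45 (SD, n = 4) and -5.13 ± 0.12 (SD, n = 4). In both pairs all transgenic ratios were below all wild-type ratios, with an exact two-sided permutation p of 0.0286, the smallest that 4 against 4 arrays can give, and 0.0914 when adjusted over the 8 pairs. Ratios of different probes show how a pair shifted, not which gene was more abundant.

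The other pairs had exact p values above 0.05 before adjustment. MC9 shifted by -0.81 against MC4 (AT1G79340), an abundant metacaspase of many tissues, and RNS3 by -0.85 against RNS1 (AT2G02990), a ribonuclease induced by phosphate starvation, each with an exact permutation p of 0.0571 (n = 4 per group). BFN1 shifted by -0.72 against its relative ENDO2 (AT1G68290), with an exact permutation p of 0.114 (n = 4 per group), and by -0.46 without MYB87-SRDX replicate 3. This shift was -0.54 with normexp and -0.55 with an offset of 50. ENDO2 was dim, with log2 signals from -6.01 to -4.85, and itself differed by 0.36 ± 0.21 (SE, adjusted p 0.230 by limma). The shift of MC9 against MC4 was -0.52 with normexp. TED6 and TED7 (AT5G48920), its partner in the cellulose synthase complex, had log2 differences of -0.54 and -0.59, neither past the threshold (adjusted p of TED7 0.109 by limma, and from 0.0686 to 0.226 over the alternatives). The difference of TED7 was -0.37 without wild type replicate 1. Their log2 ratio was 0.83 ± 0.17 (SD, n = 4) in wild type and 0.89 ± 0.14 (SD, n = 4) in MYB87-SRDX, a shift of 0.05 with an exact permutation p of 0.629, and of -0.16 with normexp. The spermine synthase SPMS (AT5G53120) uses the same substrates as ACL5. SPMS fell by 0.42 ± 0.09 (SE; adjusted p 0.0165 by limma, and from 0.00782 to 0.0861 over the alternatives, the call being lost in 3). The ACL5 to SPMS ratio shifted by -0.17, with an exact permutation p of 0.114 (n = 4 per group), by -0.10 with quantile scaling and by -0.02 with normexp. Among 8 pairs, 5 had to reach the smallest p before any could pass the adjustment.

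**Figure D2:**
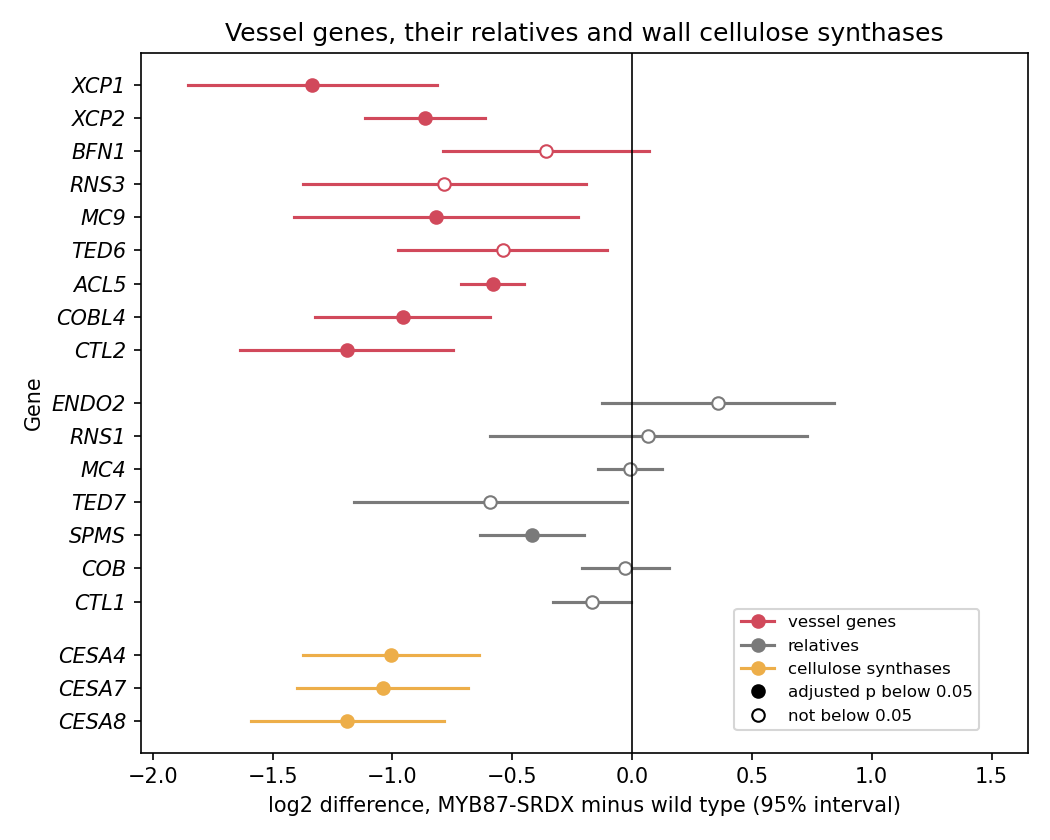
Log2 difference, MYB87-SRDX minus wild type (x axis), with its 95% interval for each gene (y axis), for the vessel genes in red, their relatives in grey and the secondary wall cellulose synthases in yellow. Filled points had an adjusted p below 0.05. The cellulose synthases lie between -1.19 and -1.01, and COB, MC4 and RNS1 lie close to 0.

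The secondary wall cellulose synthases were set beside the vessel genes as wall-building genes read in the same RNA. Their level in whole seedlings does not measure the stage of the vessels. CESA4 fell by 1.01 ± 0.16, CESA7 by 1.04 ± 0.16 and CESA8 by 1.19 ± 0.18 (SE), with adjusted p values of 0.00489, 0.00404 and 0.00388 by limma. Against the mean of these 3 within each array, CTL2 shifted by -0.11, COBL4 by 0.12 and XCP2 by 0.21, with exact permutation p values of 0.343, 0.0857 and 0.171 (n = 4 per group). The ratio of BFN1 to the synthases was higher on every transgenic array than on any wild-type array. On the log2 scale it was -1.22 ± 0.05 (SD, n = 4) in wild type and -0.50 ± 0.16 (SD, n = 4) in MYB87-SRDX. TED6 shifted the same way, from -0.31 ± 0.12 (SD, n = 4) to 0.23 ± 0.23 (SD, n = 4). Both shifts, 0.72 for BFN1 and 0.54 for TED6, had an exact two-sided permutation p of 0.0286, the smallest possible, and 0.129 when adjusted over the 9 genes. The ratio of ACL5 shifted by 0.50, with an exact permutation p of 0.0571 (n = 4 per group). RNS3 shifted by 0.29, MC9 by 0.26 and XCP1 by -0.26, with exact permutation p values of 0.0857, 0.114 and 0.0857 (n = 4 per group). No shift passed after adjustment, but with 9 genes none could have passed unless 6 of them reached the smallest p, so the adjusted values say nothing of whether these genes and the synthases fell alike. With normexp the shift was 0.01 for XCP2, 0.26 for TED6, -0.43 for XCP1 and -0.20 for CTL2, and that of COBL4 was 0.19 with quantile scaling and 0.21 with an offset of 50. The shift of XCP2 was 0.10 with quantile scaling and 0.11 without MYB87-SRDX replicate 1. That of CTL2 was -0.06 without wild type replicate 1, -0.21 without MYB87-SRDX replicate 1 and -0.03 without MYB87-SRDX replicate 4. That of MC9 was 0.17 without wild type replicate 4.

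Within the groups, ACL5 varied little, with an SD of 0.04 in wild type and 0.06 in MYB87-SRDX. Deviations from the group mean over the 8 arrays had Pearson correlations from 0.597 to 0.979 among the 28 pairs without ACL5, the highest between RNS3 and MC9. The 8 pairs with ACL5 had correlations from -0.281 to 0.219. With so little variation of ACL5 to correlate, these low values cannot show that it varied apart from the other genes. These values are descriptions over arrays that share their scaling. All 9 genes were highest on wild type replicate 1 among the wild-type arrays, and lowest on replicate 3 (4 genes) or replicate 4 (5 genes). Among the transgenic arrays, MYB87-SRDX replicate 4 was highest for 5 genes, XCP1, BFN1, RNS3, MC9 and COBL4. The other vessel genes were highest on MYB87-SRDX replicate 1 (3 genes) or replicate 3 (1 gene). MYB87-SRDX replicate 4 also had the lowest MYB87 signal, and any link to these levels was not tested.

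Markers of the root endodermis and root hairs varied along with the vessel genes, more clearly among the wild-type arrays than among the transgenic ones. The mean log2 level of the 8 listed markers ranged from -1.05 to 0.26 in wild type and from -1.14 to -0.38 in MYB87-SRDX. Only 1 of the 8, the radial patterning factor SHR, passed, with a fall of 0.41 ± 0.07 (SE). Its adjusted p by limma was 0.00496, and from 0.00242 to 0.0855 over the alternatives, the call being lost in 2. SHR is transcribed in the stele and not in the endodermis, so this fall is not that of an endodermal or hair transcript. SHR is part of the marker mean used here. Deviations of the marker mean had a Pearson correlation of 0.837 and a Spearman correlation of 0.762 with the mean deviation of the 9 vessel genes over 8 arrays. The Pearson value for ACL5, which varied little, was 0.173. Within MYB87-SRDX the 2 did not share their highest array. On replicate 2 the marker mean deviated most upward, by 0.24, and the vessel genes by -0.08. On replicate 4 the vessel genes were highest, at 0.20, and the marker mean deviated by 0.07. With that marker level as a covariate in the fit, a setting chosen after seeing the data, 7 of the 9 vessel genes were lower, against 15.3% of all loci. The fit gave both groups the same slope on the marker level. The log2 differences in that fit were -1.20 for XCP1, -0.82 for XCP2, -0.63 for RNS3, -0.68 for MC9, -0.58 for ACL5, -0.88 for COBL4 and -1.08 for CTL2, while TED6 (-0.45) and BFN1 (-0.28) did not pass. The root cap factors SMB, BRN1 and BRN2, whose tissue also uses several of these death genes, did not pass the limma test, with 0 also at an unadjusted p below 0.05 and log2 differences of -0.20, 0.36 and 0.83. Their mean level was low and, in wild type, widely spread, from -7.07 to -5.01, against -6.02 to -5.34 in MYB87-SRDX. At such levels, not passing cannot show that root cap content was unchanged.

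**Figure D3:**
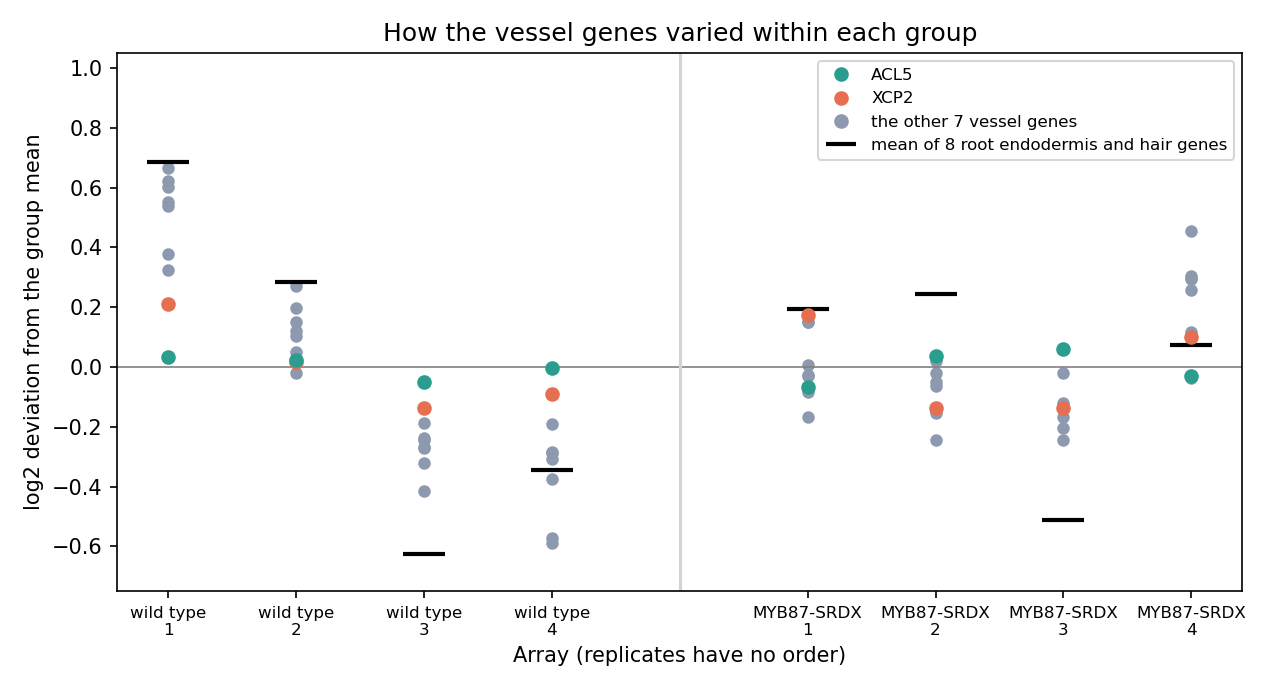
Log2 deviation from the group mean (y axis) on each array (x axis) for ACL5 in green, XCP2 in orange and the other 7 vessel genes in grey. Black bars give the mean of the 8 listed root endodermis and hair markers, SHR included. On wild type replicate 1 the marker mean and all 9 vessel genes are above their group mean, and ACL5 stays near 0 on every array.

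The loci whose deviations were most like the mean of the 9 genes over the 8 arrays were AT3G53980, GLP10 (AT3G62020), LSH9 (AT4G18610), TPPI (AT5G10100) and AT4G34600, with Pearson correlations from 0.995 to 0.996 and Spearman correlations from 0.976 to 1. Of 20253 other loci, 382 (1.89%) had a Pearson correlation of at least 0.95. GLP10, a germin-like protein, fell by 0.79 (adjusted p 0.0138 by limma). The other loci of this set did not pass, with log2 differences of -0.23 for AT3G53980, -0.25 for LSH9, -0.49 for TPPI and -0.24 for AT4G34600. Without wild type replicate 1 these became 0.09, 0.10, -0.09 and 0.09.

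Of 12 tested vessel regulators 9 fell and none rose, with a median log2 difference of -0.77. This list joins factors that switch vessel differentiation on with others that hold it back. For this list and those below, 12.5% of all loci were lower and 15.1% higher by the same rule. LBD18 was not tested, since it was well above background on 1 array. VND5 and VND6 fell by 0.95 ± 0.13 and 0.93 ± 0.14 (SE), with adjusted p values of 0.00319 and 0.00447 by limma. With normexp the difference of VND5 was -0.17, not past the threshold (adjusted p 0.246, and from 0.00164 to 0.246 over the alternatives), and that of VND6 was -0.56. With an offset of 50 the difference of VND5 was -0.31. VND7, the switch of protoxylem vessels, named here after its value was seen, fell by 0.76 ± 0.09 (SE). Of 11 tested genes of procambium and xylem specification, 7 fell and 1 rose, with a median of -0.34. WOX14 and WOX4, homeobox factors of the vascular cambium, fell by 1.60 ± 0.30 and 0.89 ± 0.19 (SE), and the difference of WOX14 was -1.06 with normexp. CLE41, which encodes the peptide that holds back xylem differentiation, rose by 0.52 ± 0.13 (SE; adjusted p 0.0202, and from 0.0108 to 0.0715 over the alternatives, with the call lost in 3).

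Of 13 secondary wall enzymes 11 fell and none rose, with a median log2 difference of -1.06. The lignin laccase gene LAC4 fell by 1.51 ± 0.19 and the xylan gene GAUT12 fell by 1.43 ± 0.16 (SE). Of 7 genes that place wall bands and pits, 4 fell and none rose, with a median of -0.62. MAP70-5, a microtubule-associated protein of wall bands, fell by 1.30 ± 0.28 (SE; -0.85 with normexp), and IQD13, which shapes pits with cortical microtubules, fell by 0.85 ± 0.24 (adjusted p 0.0345, and from 0.00864 to 0.0929 over the alternatives, the call being lost in 8 of 21).

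Around ACL5, 6 of 13 genes of the polyamine pathway fell and 1 rose, with a median log2 difference of -0.34. With the authors' values 3 fell and none rose. SAMDC3, an S-adenosylmethionine decarboxylase gene for the aminopropyl donor, fell by 1.16 ± 0.17 (SE). SACL2, a bHLH gene related to the SAC51 gene whose translation thermospermine enhances, fell by 0.98 ± 0.19 (-0.62 with normexp). SAMDC1 rose by 0.35 ± 0.09 (adjusted p 0.0260, and from 0.00893 to 0.0968 over the alternatives), a call lost in 7 of 21 settings, and its difference was 0.22 with quantile scaling.

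Of 5 tested markers of developmental death, which mark other dying tissues too, none passed as lower and 1 passed as higher. The median log2 difference was -0.44. PASPA3, EXI1, DMP4 and SCPL48 had log2 differences of -0.35, -0.61, -0.79 and -0.44, none past the threshold. CEP1, a papain-like protease of the anther tapetum and of other dying tissues, rose by 1.13 ± 0.19 (SE, adjusted p 0.00636 by limma). At an unadjusted limma p below 0.05, 3 of the 5 passed, CEP1 among them. Not passing does not show that the other markers were unchanged.

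The phloem is the other conducting tissue of the vein. Of its 8 markers 7 fell and none rose, with a median log2 difference of -0.54, and 4 fell under median scaling or with the authors' values. SULTR2;1, for a sulfate transporter, fell by 1.57 ± 0.21 (SE), and SUC2, for the sucrose loader of companion cells, fell by 0.97 ± 0.17. The mean level of the phloem list ranged from -0.10 to 0.11 in wild type and from -0.83 to -0.38 in MYB87-SRDX, and that of the 9 vessel genes from -0.41 to 0.33 and from -1.05 to -0.74. The part of this in the falls of the vessel genes was not tested.

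**Figure D4:**
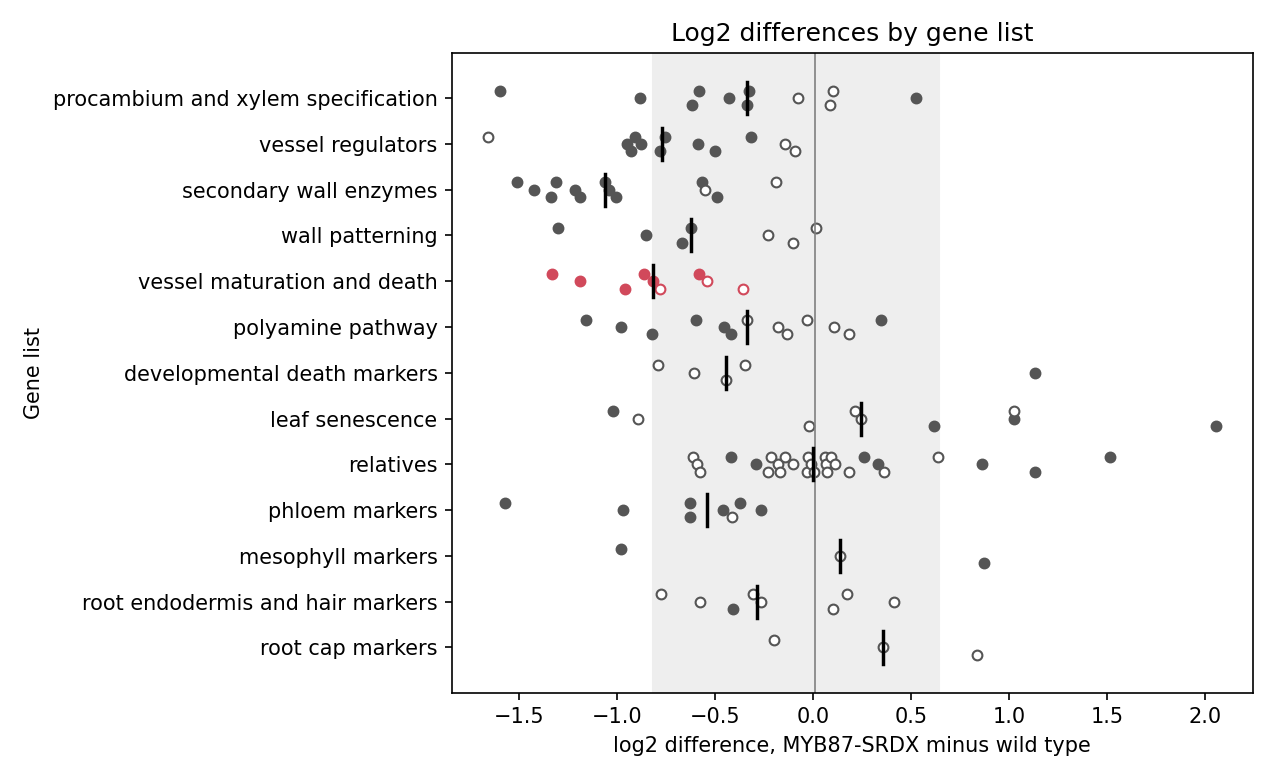
Log2 difference, MYB87-SRDX minus wild type (x axis), of each tested gene in 13 lists (y axis), filled where the adjusted p was below 0.05, with a black bar at the list median. The grey band spans the 5th to 95th percentile of all tested loci, from -0.82 to 0.64, and the medians of the lists of secondary wall enzymes, vessel maturation and vessel regulators are the lowest.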

How the data were processed

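Per the submitters' processing notes, the scanner software was Agilent Feature Extraction 9.1.3.1, and the deposited scanner tables hold its spot intensity values. The authors' deposited value table holds the same processed intensity times 0.001094 (wild type) or 0.001175 (MYB87-SRDX), as found by dividing one by the other. It is linear and uncentred, and its column medians run from 0.105 to 0.150.

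Here log2 of the processed signal minus each array's 75th percentile was used, without spots marked as outliers (3 to 44 per array). Probes had to be well above background in 3 or more arrays of either group. Where a locus had several such probes, the brightest was used. Loci were tested with limma 3.58.1 (lmFit, eBayes) in R 4.3.3, with Benjamini-Hochberg adjustment over all 20336 loci, and SE is that of the fit. Ratios within arrays were tested by exact permutation. The code was tested on simulated data. The RefSeq gene table (TAIR10.1) matched 20219 tested loci.

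Members and lists were chosen with earlier results of these data known. The text names the 9 members, MYB87, the relatives in the pairs, the 3 cellulose synthases, the 2 largest rises and falls past the threshold in each list, and the 5 loci of highest likeness, and a few others with their reason. The alternatives were other scalings, background settings, filters, variance models, a replicate block, the authors' values and leaving out each array. Leaving out wild type 1 with MYB87-SRDX 4, and the root marker covariate, were chosen after seeing the data. The median spot signal entered normexp, without 8 spots whose local background exceeded 200.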

Additional observations from a re-analysis of the deposited data

Results flagged for a closer look

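In 7 of 96 groups of 4 arrays, taken over the 48 named loci, 1 array lay far from the other 3, where chance gives about 5% of groups. On MYB87-SRDX replicate 4, the log2 signal of BFN1 was -1.39 against -2.01 to -1.98 on the other transgenic arrays. On the same array MYB87 was 2.54 against 5.52 to 5.75, and ORE1, a NAC factor of leaf ageing, was -0.54 against -0.06 to 0.02. VND6 was -4.52 on MYB87-SRDX replicate 1 against -4.06 to -4.01. CEP1 was -2.97 on MYB87-SRDX replicate 3 against -2.35 to -2.25. In wild type, SEN1 was 0.42 on replicate 3 against -0.20 to -0.13, and SAMDC3 was -0.37 on replicate 1 against 0.16 to 0.26.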

How the results depend on the processing

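Of the 9 vessel genes, 5 to 8 were lower and none higher over 21 alternatives, and no direction changed. The share of all loci that were lower ran from 5.38% with the authors' values to 17.5% with array weights. The count of 8 vessel genes came with array weights, where 3560 loci were lower. The labels do not say whether replicate numbers pair the arrays. Deviations of same-numbered arrays correlated at 0.095, 0.090, 0.155 and -0.223, which cannot show whether samples were paired in growth or harvest. With a replicate block 5 vessel genes were lower, as were 1800 of all loci (8.85%). Loci lower, 2540, became 1381 under median scaling and 1095 with the authors' values. They ranged from 1371 (no wild type 2) to 2899 with 1 array left out, and were 1505 without MYB87-SRDX 1. Loci higher, 3064, became 1102 with the authors' values and 1812 with the replicate block. They ranged from 1556 (no wild type 2) to 3088 with 1 array left out, and were 1895 without wild type 3 and 1766 without MYB87-SRDX 1. The share of calls that were higher was 54.7%, and 66.0% under median scaling. TED6 against TED7, 0.05, was -0.159 with normexp and from -0.00907 to 0.103 with 1 array left out. MC4, -0.01, was 0.0807 under median scaling, 0.00261 with the root marker covariate and from -0.0356 to 0.00394 with 1 array left out. COB, -0.03, was 0.0609 under median scaling, 0.113 with normexp and 0.0241 without wild type 1 and MYB87-SRDX 4. With 1 array left out, RNS1 ranged from -0.114 to 0.318, AT3G53980 from -0.468 to 0.0937, LSH9 from -0.468 to 0.105 and AT4G34600 from -0.472 to 0.0887. None of these reversed values passed its test. Leaving out an array leaves 3 against 4. The causes of the other changes were not tested.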

Other observations

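BFN1 is also known from ageing leaves. Of 9 tested genes of leaf ageing, 3 rose and 1 fell, with a median log2 difference of 0.24. SEN1, a gene induced in darkness and ageing, rose by 2.06 ± 0.23 (SE) and ORE1, a NAC factor of leaf ageing, by 1.02 ± 0.19, while SWEET15, a sugar exporter of ageing leaves, fell by 1.02 ± 0.29 (adjusted p 0.0334 by limma, and from 0.00584 to 0.126 over the alternatives). SAG12, a protease of late leaf ageing, was well above background on 1 MYB87-SRDX array and on none of wild type. The mean level of this list ranged from -1.19 to -0.28 in wild type and from -0.40 to -0.22 in MYB87-SRDX.

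Among 28 tested relatives of the vessel genes, 5 rose (17.9%) and 2 fell (7.14%), with a median log2 difference of -0.003, where 15.1% of all loci were higher and 12.5% lower. CEP1, among those that rose, is also counted in the list of developmental death markers. COBL6 rose by 1.51 ± 0.21 (SE; 0.69 with normexp and 0.76 with an offset of 50), and RD21A, a broadly expressed papain-like protease, fell by 0.29 ± 0.07 (adjusted p 0.0161, and from 0.00514 to 0.239 over the alternatives, the call being lost in 4; -0.46 with quantile scaling). Of 3 mesophyll markers, CAB1 fell by 0.98 ± 0.15, LHCB2.1 rose by 0.87 ± 0.22 (a call lost in 5 of 21 alternatives, adjusted p 0.0247, and from 0.0145 to 0.0707 over them) and RBCS1A did not pass.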
